A study of Mus musculus with 5 samples.

Results

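Dividing cells of the penis mesenchyme were compared with non-dividing cells of the same mesenchyme within each library. Mesenchyme was taken as the penis droplets with 500 to 6000 detected genes, at most 5% mitochondrial UMIs (unique molecular identifiers, the counted RNA molecules), at least 1 UMI of Pdgfra, a receptor of connective tissue cells, and no UMI of Cdh1, Cdh5 or Sox10, which mark epithelium, vessel lining and glia. This gate held 9695 of the 19633 penis droplets within the limits, of 30237 penis barcodes and 84440 barcodes in the series. A cell was called dividing when it had a UMI of at least 3 of the 6 genes Top2a, Mki67, Cenpf, Hmmr, Kif11 and Prc1, and non-dividing when it had none of them. The rule found 523 dividing cells (184, 177 and 162 in the penis libraries 1, 2 and 3), which is 5.39% of the gated cells, and 6830 non-dividing cells (2401, 2453 and 1976). The remaining 2342 cells had 1 or 2 of the 6 genes and belonged to neither group.

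The penis libraries came from 3 males on postnatal day 6. The prepuce had been removed. Forelimbs and hindlimbs of male embryos on embryonic day 15 gave 1 library each. The labels give the genotype of all 5 libraries as C57BL/6N, whereas the study's methods name C57BL/6J, and the labels list no treatment, transgene or deletion. The sources do not state which males gave which library, so the p-values below measure the spread between libraries.

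A cell that divides first copies its DNA in S phase, for which it makes replication enzymes and histones, and then separates the copies in mitosis with a spindle of microtubules. Genes of both phases are transcribed in waves under E2F, B-MYB, FOXM1 and NF-Y factors, and cells outside the cycle keep most of them silent. Fibroblasts of young connective tissue divide while the tissue grows and, as it matures, turn towards laying down collagen and elastic fibres.

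Promoters of genes from both waves are shown here, because nearly all tested genes of both lists were higher in dividing cells. The sequences are from RefSeq on GRCm38.p6 and hold the 150 bases before the most upstream start site in the table, 5′ to 3′ on the strand of the gene. Bub1 (a checkpoint kinase of the spindle; chr2:127831860-127832009, minus strand), Nuf2 (a kinetochore protein; chr1:169531465-169531614, minus strand) and Ckap2l (a spindle protein; chr2:129297213-129297362, minus strand) are the mitosis genes with the largest differences whose promoters could be printed. E2f8 (an E2F family repressor; chr7:48881597-48881746, minus strand) and Rad51ap1 (a DNA repair factor; chr6:126939588-126939737, minus strand) are the replication genes chosen in the same way. Capitals mark CCAAT, the letters that NF-Y binds, and TTTGAA, the core of the element named CHR, each read on both strands, so that ATTGG and TTCAAA are marked too.
Bub1: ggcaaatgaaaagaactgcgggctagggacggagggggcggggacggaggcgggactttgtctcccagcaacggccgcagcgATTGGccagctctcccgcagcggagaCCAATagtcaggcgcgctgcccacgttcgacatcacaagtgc
Nuf2: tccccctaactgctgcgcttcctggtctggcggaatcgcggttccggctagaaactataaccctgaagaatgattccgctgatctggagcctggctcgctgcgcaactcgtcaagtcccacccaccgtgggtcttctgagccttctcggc
Ckap2l: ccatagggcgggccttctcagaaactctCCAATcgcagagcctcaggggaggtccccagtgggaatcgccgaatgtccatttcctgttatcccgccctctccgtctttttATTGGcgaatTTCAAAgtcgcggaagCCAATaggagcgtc
E2f8: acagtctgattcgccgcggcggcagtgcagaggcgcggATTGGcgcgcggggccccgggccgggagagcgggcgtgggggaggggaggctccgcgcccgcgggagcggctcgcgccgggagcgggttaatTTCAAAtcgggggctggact
Rad51ap1: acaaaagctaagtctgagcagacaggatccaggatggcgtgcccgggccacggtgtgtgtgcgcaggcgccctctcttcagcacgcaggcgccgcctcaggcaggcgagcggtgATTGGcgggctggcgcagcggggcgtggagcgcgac
The 5 windows differ: Ckap2l held 4 marked stretches, Bub1 and E2f8 held 2 each, Rad51ap1 held 1 and Nuf2 held none.

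Over the full windows of 250 bases before to 50 after the start, CCAAT was found on either strand in 36 of the 49 mitosis promoters in the table (73.5%), against 38.02% of all 27025 promoters. TTTGAA was found in 31 of the 49 (63.3%), against 18.2% of all. Among the 11788 promoters of tested genes the shares were 38.5% for CCAAT and 12.1% for TTTGAA. In the 37 replication promoters, CCAAT was in 62.2% and TTTGAA in 13.5%. TTTCCCGC or TTTGGCGC, both of which E2F factors bind, was in 13 of the 37 replication promoters (35.1%), in 2 of the 49 mitosis promoters (4.08%), in 2.88% of the tested genes and in 1.63% of all. All 6 promoters of the rule genes held CCAAT and TTTGAA. None of the searched motifs contains another, and a match is a description of the letters only. Promoters were in the table for 49 of 58 mitosis genes and 37 of 49 replication genes. Among the 16 promoters in the table from the list of fibrillar collagens and their processing enzymes, 31.2% held CCAAT and none held either E2F motif.

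The genes of the rule are given as a description, since they chose the cells. Top2a, the topoisomerase that untangles replicated DNA, stood at 1008, 908 and 1234 CPM (the UMIs of a gene scaled to a fixed total of UMIs, summed over the cells of a group) in the dividing cells of libraries 1, 2 and 3. Mki67, a coat protein of mitotic chromosomes, stood at 564, 535 and 737 CPM and the kinetochore protein Cenpf at 647, 527 and 988 CPM. Hmmr, a spindle protein, was the least often seen of the 6, with a UMI in 71.2%, 67.8% and 76.5% of the dividing cells. All 6 genes were highest in library 3. Pdgfra, the gate gene, was at 224, 216 and 243 CPM in dividing and 244, 261 and 270 CPM in non-dividing cells.

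Mesenchyme markers were present in both groups: all 12 mesenchyme markers (among them Twist1, Prrx1, Col1a1 and Col3a1) had UMIs, and their summed level was 23576 to 24577 CPM in dividing and 29959 to 31444 CPM in non-dividing cells. Summed markers of vessel lining were at 56.2 to 75.7 CPM in dividing and 64.3 to 66.3 CPM in non-dividing cells. Epithelial markers summed to 35.2 to 67.5 CPM and 41.1 to 80.4 CPM, glial markers to 8.98 to 11.4 CPM (with Foxd3 at 0) and 14.9 to 18.4 CPM. Mural cell markers, of the contractile cells around vessels, were higher in the dividing cells of each library, at 204, 510 and 342 CPM against 183, 177 and 223 CPM in non-dividing cells. Within that list Acta2 reached 323 CPM in the dividing cells of library 2 and Rgs5 reached 53.8 CPM in those of library 3. White blood cell markers were at 101, 114 and 20.004 CPM in dividing and 66.2, 84.6 and 50.4 CPM in non-dividing cells. Red blood cell markers summed to 2461 to 4340 CPM and 4132 to 5241 CPM.

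The dividing share of gated cells was 5.45% (exact binomial 95% interval 4.71 to 6.27), 5.04% (4.34 to 5.82) and 5.77% (4.94 to 6.70) in the penis libraries. It was 20.9% in the forelimb, 2008 of 9606 cells, and 20.4% in the hindlimb, 1922 of 9412 cells, where the gate allowed 100 to 9000 genes and 10% mitochondrial UMIs. The limb mean was 3.81 times the penis mean, and no penis library reached a limb library. A stricter gate also barred 9 marker genes of blood, vessel, epithelial, glial and mural cells, among them the haemoglobin gene Hbb-bs. It left 473, 455, 544, 112 and 165 cells, with means of 5.21% and 10.8% and a ratio of 2.08. Red blood cell markers summed to 2461 to 5241 CPM in the penis groups, and how many cells free haemoglobin RNA removed was not tested. With no UMI of Ptprc, Tyrobp, Fcer1g, Rgs5, Myh11 or Pecam1 (chosen after seeing the data), 2260, 2297, 1860, 5732 and 5863 cells remained. The means were then 5.15% and 17.6% and the ratio was 3.43. With 3 libraries against 2, the two-sided exact permutation test gave p = 0.1, the smallest value this design allows. Because a UMI of 3 genes is easier to find in a deeper cell, every cell was also thinned to 4000 UMIs. Cells with fewer UMIs were left out, which removed more limb than penis cells. It kept 3231 of 3376, 3355 of 3511 and 2682 of 2808 penis cells, but 7194 of 9606 forelimb and 7844 of 9412 hindlimb cells. The share was then 4.36%, 3.61% and 5.15% in the penis and 20.4% and 18.4% in the limbs, a ratio of means of 4.43. At 2000 UMIs it was 3.57%, 2.66% and 4.13% against 12.4% and 11.5%. The penis libraries stayed below both limbs at each depth, although age and tissue cannot be told apart here. As a measure of free RNA, of 2332 penis droplets that were red blood cells by their haemoglobin UMIs (medians of 4245 to 5499 UMIs in the libraries), 222 had at least 1 of the 6 genes and 0 met the rule, which allows a share of up to 0.129%. Of 10, 11 and 4 suprabasal keratinocytes, which were deeper at medians of 20176 to 23000 UMIs, 0, 3 and 1 met it. The intervals cover counting error only.

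**Figure D1:**
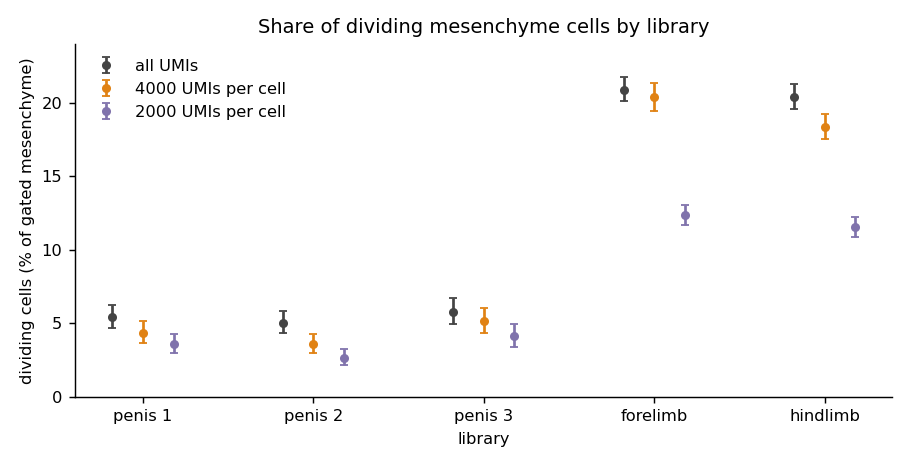
Share of gated mesenchyme cells called dividing (y axis, percent) in each of the 5 libraries (x axis), with all UMIs and after thinning every cell to 4000 or 2000 UMIs. Points are shares and bars are exact 95% binomial intervals. The penis libraries lie between 5.04% and 5.77% with all UMIs, and the forelimb and hindlimb at 20.9% and 20.4%.

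Dividing cells held more RNA molecules than non-dividing cells. The median was 14106 against 10524 UMIs per cell in library 1, 13766 against 9921 in library 2 and 13148 against 9134 in library 3. The ratio was 1.39 ± 0.05 (SD, n = 3) for UMIs and 1.26 ± 0.05 for detected genes, above 1 in all 3 libraries. The two-sided exact sign-flip permutation test gave p = 0.25 for both ratios, the smallest 3 pairs allow. The mitochondrial percentage overlapped between the groups, with a median of 2.18%, 2.19% and 2.18% in dividing and 2.15%, 2.24% and 2.26% in non-dividing cells, a difference of -0.03 ± 0.06 percentage points. The rule itself favours deeper cells, so results below were also computed among cells with 8000 to 16000 UMIs, where the ratio of median UMIs was 1.14, and on the thinned counts. The limit of 6000 genes removed some dividing cells: without it the penis share was 6.14 ± 0.50% (SD, n = 3; chosen after seeing the data).

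Values of the cells just outside and just inside the threshold were as follows. The 371 penis cells with exactly 2 of the 6 genes had a summed level of 1547 ± 66.9 CPM (SD over 3 libraries) for the mitosis list, and the 90 cells with exactly 3 genes had 3601 ± 325 CPM. The replication list was at 1987 ± 174 CPM with 2 genes and 4211 ± 915 CPM with 3. Top2a was seen in 60.1%, 50% and 57.5% of the cells with 2 genes and in 77.4%, 82.5% and 73.7% of those with 3. These values carry no test, since the count of genes sets them in part.

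UMIs were summed per library and group and tested with edgeR's quasi-likelihood test, with the library as a block, at a Benjamini-Hochberg adjusted p under 0.01. Of 15876 genes tested, 2407 (15.2%) were higher in dividing cells and 1665 (10.5%) were lower. Among the 8076 at 20 CPM or more, 2004 were higher and 1380 lower. These shares are the background for the list counts below. Past a log2 fold change of 1, 933 (5.88%) were higher and 271 (1.71%) lower, so the increases were larger than the decreases. The median log2 fold change over all tested genes was -0.02. The libraries did not overlap between the groups in 49.2% of the tested genes. The counts of calls depended on the settings. With no low-count filter 2368 genes were higher and 2643 lower, so the balance turned. Under the stricter gate 868 were higher and 394 lower, and DESeq2 gave 1867 and 989. With a rule of at least 2 of the 6 genes, 67 were lower past 1.

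Of the 12 mesenchyme markers themselves, 8 were called lower in dividing cells and 1, Prrx1, higher, with a median log2 fold change of -0.24. The markers of other cells follow. The mural markers Rgs5, Acta2, Myh11 and Cspg4, 4 of 8, were called higher. Single libraries carried the size of 3 of them: Acta2 changed by 1.62, but by 0.44 without library 2, Myh11 by 0.84 but by 0.29 without library 2 (edgeR adjusted p = 0.199), and Rgs5 by 1.95 but by 1.16 without library 3. Of 8 white blood cell markers 1, Fcer1g, was called higher, which did not pass without library 2 (log2 fold change 0.85, edgeR adjusted p = 0.0262). Of 6 vessel markers Kdr was called lower, and none of the epithelial, glial, red blood cell or muscle markers tested was called. Without cells holding a UMI of Ptprc, Tyrobp, Fcer1g, Rgs5, Myh11 or Pecam1 (an alternative chosen after seeing the data), 1932 genes were higher and 1279 lower, with all 58 mitosis genes and 48 replication genes among the higher ones.

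The strongest increases were in mitosis genes. All 58 of the 58 tested mitosis genes outside the rule were higher, with a median log2 fold change of 5.71, and 57 passed 1. These genes share the phase of the rule genes, so the count checks the label of the cells and is no independent finding. Aurkb, the kinase that corrects spindle attachment, stood at 148, 137 and 178 CPM in dividing and 0.31, 0.63 and 0.21 CPM in non-dividing cells. Its log2 fold change was 8.56 ± 0.17 (SE; edgeR adjusted p = 2.64e-14). Bub1, whose promoter is shown above, stood at 88.2, 91.9 and 105 CPM against 0.39, 0.28 and 0.59 CPM. Nuf2 and Ckap2l, the other mitosis genes shown there, rose by 7.32 and 7.25 on the log2 scale, and Ccna2, a cyclin of S phase and mitosis, by 7.58. Hmgb2, a chromatin protein bound to DNA in dividing cells, had the highest level of the list, at 2431, 2571 and 2805 CPM against 142, 158 and 137 CPM. No library of non-dividing cells came near a library of dividing cells for any of these genes.

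DNA replication genes moved the same way with smaller changes. Of 49 tested, 48 were higher and 1 did not pass, with a median of 2.44. Tk1, the thymidine kinase of S phase, was at 162, 142 and 145 CPM against 1.90, 2.37 and 1.93 CPM (log2 fold change 6.19 ± 0.11 SE, edgeR adjusted p = 1.17e-14). E2f8, which closes the replication wave, rose by 6.6 and Rad51ap1 by 5.26. Gmnn, the inhibitor of repeated origin firing, was at 83.1, 83.5 and 87.2 CPM against 3.41, 3.36 and 2.47 CPM. Nasp, a histone chaperone, was the most abundant member and was high in both groups, at 415, 387 and 413 CPM against 223, 225 and 226 CPM.

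All 19 tested histone genes were higher, with a median of 4.06. Hist1h1b, a linker histone, rose from 3.1, 3.51 and 3.59 CPM in non-dividing to 721, 836 and 704 CPM in dividing cells. Hist1h2af, Hist1h3c and Hist1h2ab were among the 12 largest changes of all genes, at 8.99, 7.87 and 7.84. These copies are nearly identical in sequence, and their counts may be split between copies. The variants H3f3a and H3f3b, which are made throughout the cycle, rose by 0.59 each, from mean levels of 1339 and 1531 CPM to 1989 and 2271 CPM. The 12 largest changes at 20 CPM or more also held Depdc1a (9.87), Pimreg (8.63), the cohesin acetylase Esco2 (8.43), the kinetochore gene Ska1 (7.91), the DNA glycosylase Neil3 (7.85) and Cdca3 (7.71), a trigger of mitotic entry.

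Regulators of the cycle were divided by class. Of 23 tested, 14 were higher and 3 lower. Foxm1 and Mybl2, activators of the mitotic wave, rose by 4.59 and 4.26, and E2f7 and E2f2 by 4.60 and 4.09. Lin9 and Lin54, which join B-MYB or the repressive DREAM complex at the CHR, rose by 2.37 and 2.28. The 3 lower genes were the D cyclins, which link growth signals to the cycle. Ccnd2, the most abundant regulator, was at 176, 196 and 151 CPM in dividing and 402, 411 and 401 CPM in non-dividing cells, a log2 fold change of -1.19 ± 0.07 (SE; edgeR adjusted p = 4.28e-09). Ccnd3 and Ccnd1 changed by -0.45 and -0.35. Their partner kinase Cdk4 was higher, at 218, 205 and 177 CPM against 134, 120 and 120 CPM. Over the whole groups the 3 D cyclins had the opposite sign to their kinase and to the other called regulators. The non-dividing group was defined only by the absence of the rule genes. It can therefore hold cycling cells that did not yet express those genes, together with resting cells. Whether D cyclins differ between cycling and resting cells was not tested.

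Inhibitors of the cycle also went both ways: of 22 tested inhibitors and quiescence genes, 7 were higher and 8 lower. The INK4 genes Cdkn2c and Cdkn2d, inhibitors of the kinases that pair with D cyclins, were at 150, 124 and 175 CPM against 18.5, 16.7 and 16.3 CPM, and at 126, 138 and 165 CPM against 16.4, 15.3 and 14.6 CPM. Cdkn1a, the p21 inhibitor, was at 135, 118 and 105 CPM against 57.7, 63.8 and 53.2 CPM. The retinoblastoma relative Rbl1 rose by 2.05 and Rb1 by 0.73. Cdkn1c, the imprinted p57 inhibitor and the most abundant of the list, was lower, at 598, 739 and 760 CPM against 894, 871 and 812 CPM (log2 fold change -0.28 ± 0.07 SE, edgeR adjusted p = 0.00699). Without library 1 its change was -0.15 (edgeR adjusted p = 0.12). Gas6, a ligand named for growth arrest, changed by -0.77. Gas1, of the same origin, was at 694, 620 and 651 CPM against 765, 727 and 743 CPM and did not pass.

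**Figure D2:**
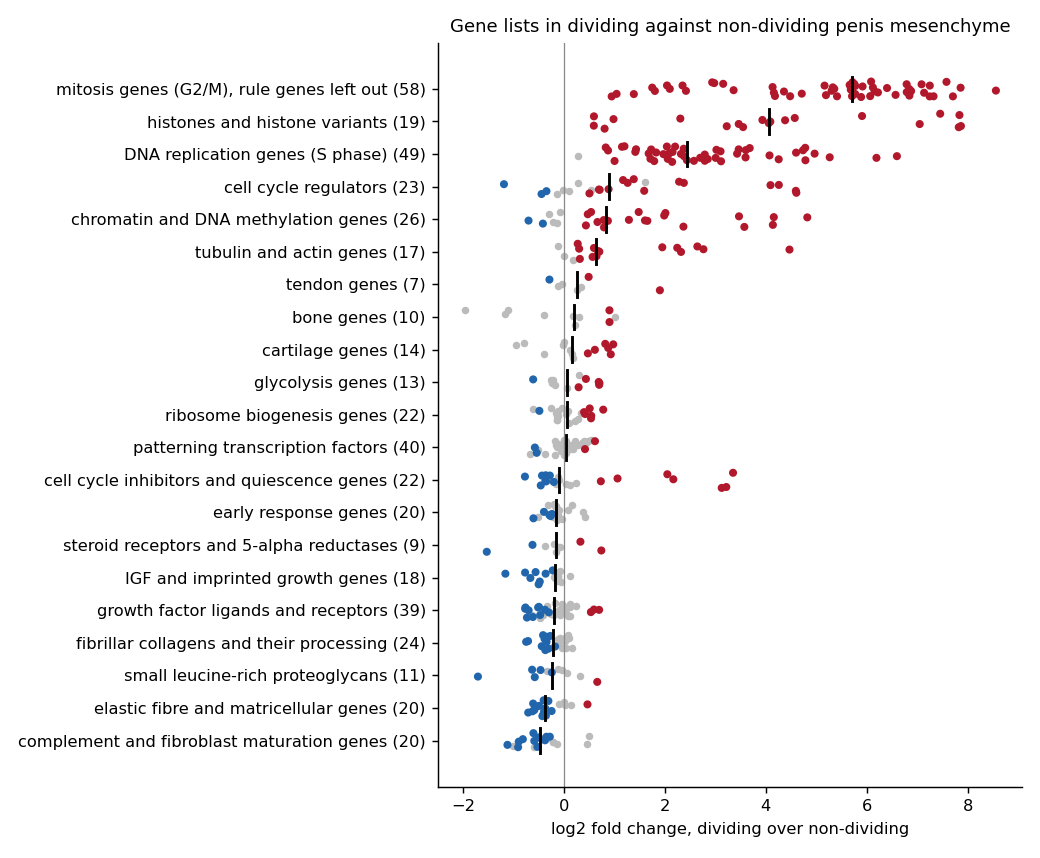
Log2 fold change of dividing over non-dividing penis mesenchyme (x axis) for the tested members of each gene list (rows, number tested in parentheses), sorted by median. Red and blue points passed an adjusted p of 0.01 as higher or lower, grey points did not, and black bars are medians. Mitosis genes lie at a median of 5.71, and complement and fibroblast maturation genes at -0.48.

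Of the genes of the fibroblast matrix that were called, most were lower in dividing cells. Of 24 fibrillar collagens and their processing enzymes, none was higher, 12 were lower and 12 did not pass, with a median log2 fold change of -0.22. Under the stricter gate, with 31, 17 and 29 dividing cells, 3 were lower. Col3a1, of reticular fibres, was at 6467, 6771 and 6819 CPM in dividing and 9032, 9092 and 9553 CPM in non-dividing cells (log2 fold change -0.44 ± 0.04 SE, edgeR adjusted p = 4.85e-07). Col1a1 was at 6852, 6870 and 6253 CPM against 8346, 8090 and 8630 CPM. Both collagens stayed among the highest of the list in dividing cells, so the decrease was partial. CPM are shares of the UMIs of a group, and dividing cells held a median of 1.39 times as many UMIs per cell. A modestly lower share, for this list and the others, therefore need not be a lower amount per cell. Lox, which crosslinks collagen and elastin, changed by -0.71, from a mean of 495 to 298 CPM, its relative Loxl1 by -0.41, and Col5a3 by -0.75.

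Of the elastic fibre and matricellular genes, 15 of 20 were lower and 1 was higher, and under the stricter gate 8 were lower. Mfap4, of elastic microfibrils, was at 430, 395 and 348 CPM against 635, 609 and 573 CPM. Tnxb, a tenascin that spaces collagen fibrils, changed by -0.71, Ltbp1, which stores latent TGF-beta, by -0.59, and Sparc, a collagen-binding protein, by -0.37. The member that was higher was the other tenascin, Tnc, at 177, 178 and 190 CPM against 135, 129 and 138 CPM.

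The small leucine-rich proteoglycans held the largest decrease of an abundant matrix gene. Ogn, which binds collagen fibrils, was at 207, 308 and 289 CPM in dividing and 842, 922 and 871 CPM in non-dividing cells, a log2 fold change of -1.71 ± 0.08 (SE; edgeR adjusted p = 3.01e-10). Dcn, the decorin core protein, changed by -0.46, Aspn by -0.63 and Lum by -0.24, which did not pass without library 2 (edgeR adjusted p = 0.0208) and was at 0.0692 under the stricter gate. Bgn, the close relative of Dcn, was at 1145, 991 and 1069 CPM against 1050, 1013 and 1037 CPM and did not pass, and 5 of the 11 members were lower and 1, Prelp, higher. The class therefore did not move as a block.

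Complement and fibroblast maturation genes had the lowest median of the lists other than cell type markers, -0.48, with 11 of 20 lower and none higher. Serping1, the inhibitor of the first complement protease, was at 99.5, 102 and 99.1 CPM against 192, 190 and 192 CPM. Clec3b, the tetranectin gene, was at 66.8, 73.5 and 60.0 CPM against 133, 123 and 123 CPM. Pi16, a peptidase inhibitor of fibroblasts, changed by -0.59, the IGF-binding Igfbp4 by -0.61 and the globin Cygb by -0.82. Apoe, the most abundant of the list, was at 1742, 1491 and 1210 CPM against 1786, 1788 and 1609 CPM and did not pass.

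Growth genes of the IGF and imprinted class were lower in 8 of 18 and higher in none. Under the stricter gate 5 were lower, and with no low-count filter 14 were. Igfbp3, which carries IGF in tissue fluid, was at 164, 237 and 238 CPM against 480, 472 and 486 CPM (log2 fold change -1.16 ± 0.09 SE, edgeR adjusted p = 1.06e-07). Igf1 was at 582, 604 and 559 CPM against 895, 910 and 1013 CPM, a change of -0.67. Its fetal relative Igf2 was at 195, 281 and 284 CPM against 352, 369 and 361 CPM. H19, the noncoding neighbour of Igf2, changed by -0.56 and the imprinted Meg3 by -0.77, from a mean of 1755 to 1010 CPM. All 5 genes were lower in dividing cells of every library. A stricter separation, with no overlap between the libraries of the groups, was seen in 49.2% of all tested genes, counted in either direction.

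**Figure D3:**
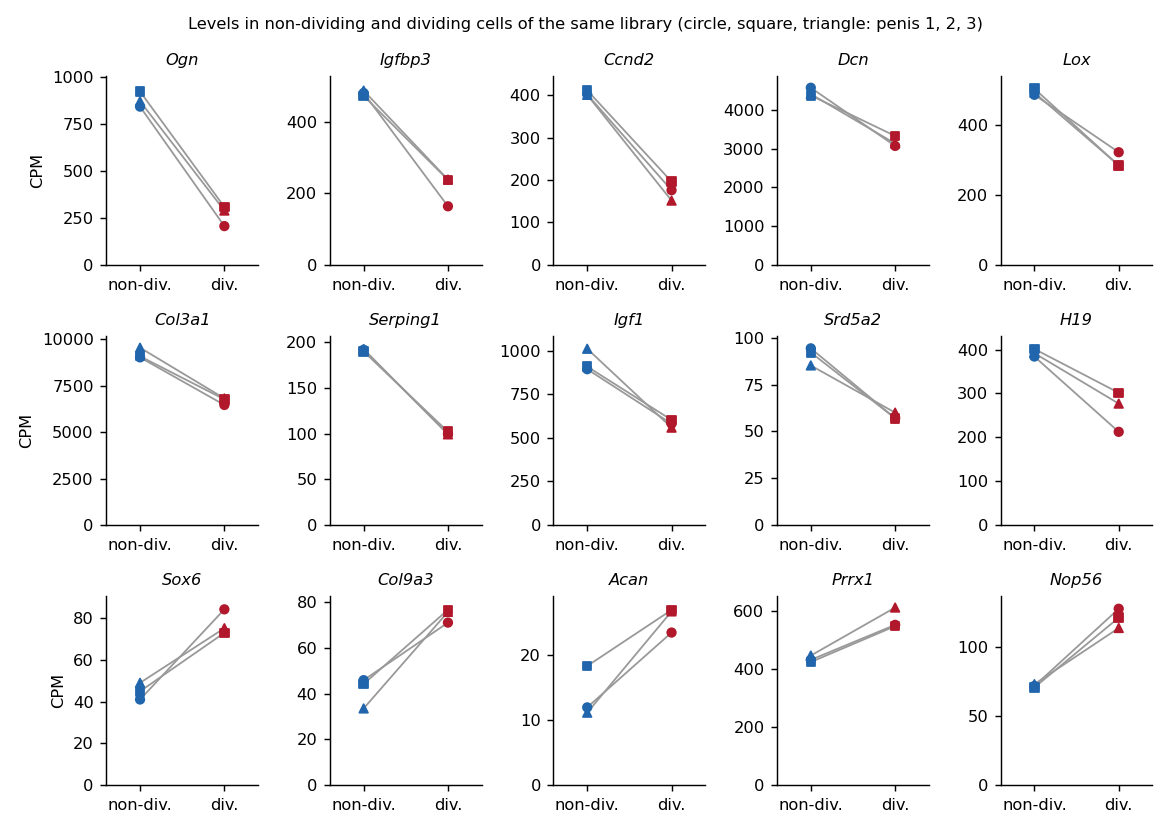
Level in CPM (y axis, from 0) of 15 genes in the non-dividing (blue) and dividing (red) cells of the same library, joined by a line, with the shape of the points giving the penis library. Ogn falls from 842 to 922 CPM to 207 to 308 CPM and Col9a3 rises from 33.5 to 45.9 CPM to 71.0 to 76.7 CPM.

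Hormone signalling, to which the growth of the penis is tied, was followed in 9 steroid receptors and 5-alpha reductases. Of these, 2 were higher, 2 lower and 5 did not pass. Over all tested genes 15.2% were higher and 10.5% lower, so these small counts say little about the group. Srd5a2, the enzyme that turns testosterone into dihydrotestosterone, was lower, at 57.0, 57.0 and 60.0 CPM against 94.4, 92.2 and 85.2 CPM (log2 fold change -0.62 ± 0.08 SE, edgeR adjusted p = 2.65e-05). Among cells with 8000 to 16000 UMIs its change was -0.35 with an edgeR adjusted p of 0.0224, and without mural, white blood or vessel UMIs -0.48 with 0.0104. Srd5a1, the other reductase, rose by 0.74 at low levels of 15.6, 10.03 and 11.9 CPM against 8.05, 7.78 and 6.92 CPM. The glucocorticoid receptor Nr3c1 rose by 0.33 and the mineralocorticoid receptor Nr3c2 changed by -1.53 at a mean of 4.35 against 13.4 CPM.

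Ligands and receptors of growth factors were called in 13 of 39 cases, 3 higher and 10 lower. Of all tested genes 15.2% were higher and 10.5% lower, and the list was not tested as a set. The lower genes included the BMP ligand Bmp4, at 59.3, 69.4 and 66.7 CPM against 119, 110 and 107 CPM, and Fgf10, Tgfb3, Tgfbr3 and Wnt2, with changes of -0.62, -0.73, -0.77 and -0.70. The higher genes were Tgfb1, the hedgehog effector Gli3 and Bmp5, and Bmp5 was at 31.6, 44.2 and 35.7 CPM against 20.9, 23.7 and 25.6 CPM. Transcription factors that pattern limb and genital tissue were mostly not called, 36 of 40, with a median of 0.03. Prrx1, a homeobox factor of limb and genital mesenchyme, rose by 0.42 and the odd-skipped factors Osr1 and Osr2 changed by -0.54 and -0.58. Isl1, the factor of the early genital tubercle, was at 191, 233 and 208 CPM against 234, 239 and 248 CPM and did not pass (edgeR adjusted p = 0.0488).

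Cartilage genes were higher in 6 of 14 and lower in none. Sox6, which acts with Sox9 in cartilage precursors, was at 84.3, 73.1 and 75.3 CPM against 41.0, 44.9 and 49.0 CPM (log2 fold change 0.82 ± 0.09 SE, edgeR adjusted p = 8.11e-06). Col9a3, of cartilage fibrils, was at 71.0, 76.7 and 75.7 CPM against 45.9, 44.2 and 33.5 CPM, and Acan, the aggregating proteoglycan, at 23.4, 26.9 and 26.7 CPM against 11.9, 18.3 and 11.1 CPM. Col11a1, Col11a2 and Col9a1, which build the same fibrils, rose by 0.61, 0.98 and 0.47. Without library 1, Col11a2 (0.62, edgeR adjusted p = 0.014) and Col9a1 (0.34, edgeR adjusted p = 0.0145) did not pass. Under the stricter gate 2 cartilage genes were called and Col11a2 was at -0.49 (edgeR adjusted p = 0.688), and with a rule of at least 2 division genes 3 were called. Sox9 itself was at 106, 91.5 and 97.6 CPM against 99.1, 103 and 99.0 CPM. Without the limit of 6000 genes Sox9 was higher by 0.32 (edgeR adjusted p = 0.00234). Col2a1, the main collagen of cartilage, did not pass, at 31.6, 29.7 and 20.004 CPM against 37.3, 66.3 and 10.8 CPM. Its change of -0.40 was 1.33 among cells with 8000 to 16000 UMIs, -1.33 without the limit on genes and -0.71 without library 3, and each of these 3 passed the edgeR test, so it has no stable direction.

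Bone genes gave 2 calls in 10, both higher, against 15.2% of all tested genes called higher. Runx2, the factor that starts bone formation, was at 44.9 and 57.8 CPM against 19.6 and 22.9 CPM in libraries 1 and 2, but at 24.3 against 28.4 CPM in library 3. Its log2 fold change was 0.90 ± 0.21 (SE; edgeR adjusted p = 0.00356). It lost the call in DESeq2 (adjusted p = 0.227) and without library 2 (log2 fold change 0.60, edgeR adjusted p = 0.0229), was 0.42 without mural, white blood or vessel UMIs (edgeR adjusted p = 0.177), and was -2.14 under the stricter gate (edgeR adjusted p = 0.000882), a call in the opposite direction. The other bone call, Ibsp, stayed under 23 CPM in every library. Spp1, osteopontin, was at 429 CPM in the dividing cells of library 2 but 21.9 and 110 CPM in the others, and did not pass. Of 7 tendon genes, Tnmd rose by 1.90, carried by 44.9 CPM in library 1 against 11.2 and 10.002 CPM in the others and 1.11 without it, and Thbs4 by 0.49, which did not pass without library 1 (edgeR adjusted p = 0.0182). Egr1, on the tendon and early response lists, changed by -0.29 and did not pass without library 2 (edgeR adjusted p = 0.0132). With Jund, Ier3, Hspa1a and Hspa1b it made up the 5 of 20 early response genes that were lower, and none was higher.

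Lists of the growth machinery differed. Over all tested genes 15.2% were called higher, and at 20 CPM or more 2004 of 8076 genes were. Tubulin and actin genes were higher in 14 of 17, with Stmn1, which regulates microtubules, at 1536, 1304 and 1453 CPM against 71.7, 66.9 and 58.3 CPM and Tubb5 at 1846, 1673 and 1734 CPM against 383, 354 and 333 CPM. Chromatin genes were higher in 19 of 26 and lower in 2, Dnmt3a and Tet2, with the nuclear lamina gene Lmnb1 at 3.47, the condensin Smc2 at 4.14 and Hmgb1 at 1.48 on the log2 scale. Ribosome biogenesis genes were higher in 6 of 22, near the share at 20 CPM or more, and lower in 1, Mybbp1a (not without library 1, edgeR adjusted p = 0.0488). Their median was 0.06, with 12 positive and 10 negative. The higher ones were led by Nop56 at 127, 121 and 113 CPM against 71.5, 70.4 and 72.8 CPM, and Npm1 did not pass. Glycolysis genes were higher in 5 of 13, among them Gapdh (0.69) and Pgam1 (0.70), and the hexokinase Hk2 changed by -0.61. The median of this list was 0.06, with 7 positive and 6 negative.

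The 12 lowest genes at 20 CPM or more held several of other functions. Dlg2, a scaffold of synapses, was at 74.2, 59.8 and 121 CPM in dividing and 283, 258 and 302 CPM in non-dividing cells, a change of -1.74 ± 0.11 (SE; edgeR adjusted p = 1.32e-08). Adamts17, an extracellular protease, changed by -1.91, the potassium channel partner Kcnip1 by -1.71, the retrotransposon-derived Rtl4 by -1.66 and the claudin Cldn10 by -1.63. Nkain4, Gm30382, C1qtnf3 and Tcp11l2 complete the list with -1.76, -1.73, -1.67 and -1.58. S100a9 and S100a8, neutrophil genes, were on it through library 3, where S100a9 was at 57.3 CPM in non-dividing cells against 2.86 CPM in library 1. Without cells holding mural, white blood or vessel UMIs, S100a8 was at 0.43 with an edgeR adjusted p of 0.428, and without library 3 at -1.04 in place of -1.71. Angpt2, an angiopoietin that acts on vessels, was lower as well, at 55.4, 46.6 and 44.8 CPM against 122, 130 and 122 CPM.

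Across the number of rule genes seen in a cell, the means of some replication and mitosis genes peaked at different places. Single libraries did not always peak at the same place as the mean. The count of rule genes sets these values in part, and they carry no test. The cells with 4 genes numbered 31, 17 and 15 in the libraries. Mcm5, a subunit of the replicative helicase, was at 6.67 ± 0.12 CPM (SD over 3 libraries) in cells with none of the 6 genes, 85.4 ± 20.4 CPM in cells with 4 and 43.4 ± 3.96 CPM in cells with all 6. In library 2 Mcm5 was highest with 3 genes, at 90.4 CPM against 66.4 CPM with 4. The mean of Rrm2, which makes DNA building blocks, reached 200 ± 24.7 CPM at 5 genes and stood at 174 ± 12.3 CPM at 6. Its peak lay at 6 genes in library 2 (182 CPM) and at 4 genes in library 3 (244 CPM). Ccnb1, the mitotic cyclin, was still at 27.0 ± 23.9 CPM with 4 genes and reached 222 ± 42.7 CPM with 6. The mitosis list as a whole rose from 1128 ± 17.4 CPM at 0 genes to 18158 ± 1145 CPM at 6. The replication list as a whole had no clear peak, at 5875 ± 877, 5924 ± 273 and 5205 ± 314 CPM with 4, 5 and 6 genes. The mean of Hist1h1b, the linker histone, was highest with 6 genes, at 1060 ± 294 CPM. In library 3 Hist1h1b was higher with 5 genes, at 944 CPM against 777 CPM with 6. The lower genes differed in shape. Ccnd2 was at 405 ± 5.87, 424 ± 15.6 and 427 ± 35.3 CPM with 0, 1 and 2 genes, and at 329 ± 27.4, 259 ± 15.4, 147 ± 4.34 and 128 ± 9.02 CPM with 3, 4, 5 and 6. Ccnd1 did not fall steadily: it was at 97.7 ± 10.4 CPM with none, 146 ± 14.3, 93.8 ± 21.5 and 118 ± 62.9 CPM with 3, 4 and 5, and 45.3 ± 10.1 CPM with 6. Ogn was already lower with 2 genes, at 544 ± 127 CPM, and ended at 191 ± 28.7 CPM. Cells with all 6 genes were the deepest, with medians of 16163, 15786 and 13952 UMIs. From 1 to 5 genes the medians lay between 10434 and 13196 UMIs with no steady order, and with none at 9134 to 10524 UMIs.

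**Figure D4:**
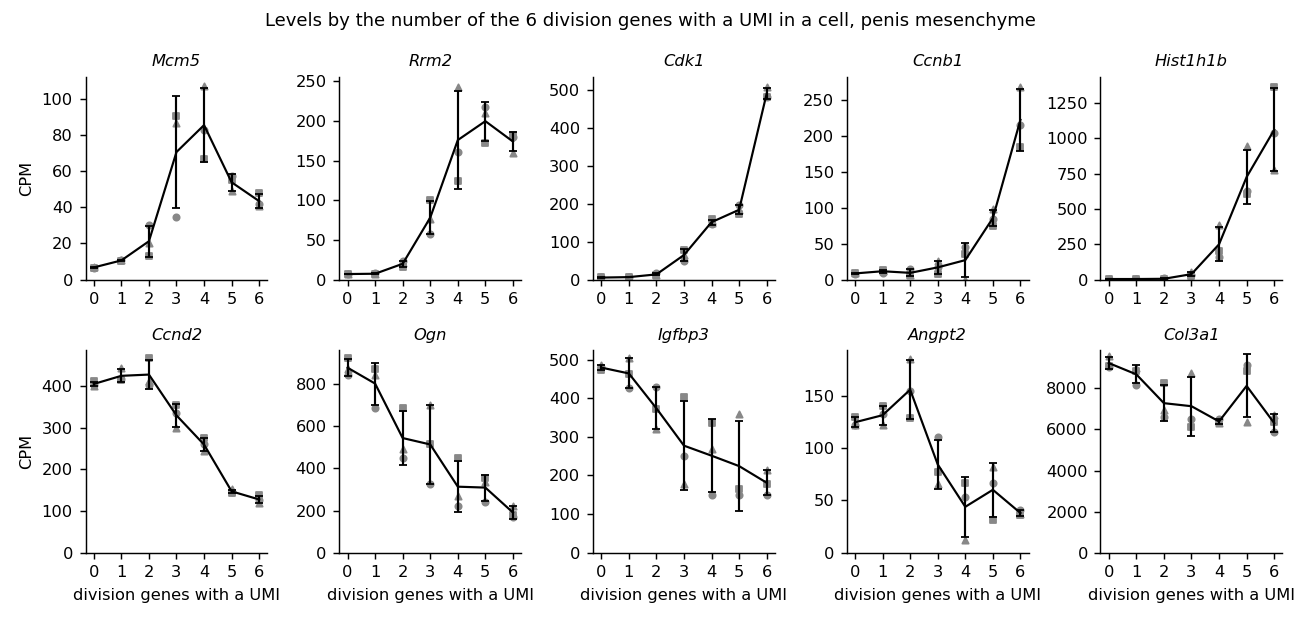
Level in CPM (y axes, from 0) of 10 genes in penis mesenchyme cells grouped by how many of the 6 rule genes have a UMI (x axes, 0 to 6). Grey symbols are the 3 libraries and the black line is their mean with SD bars. The mean of Mcm5 is highest at 4 genes and that of Ccnb1 at 6, and the mean of Ogn goes from 878 to 191 CPM.

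The dividing share also differed between cells that carried certain stromal genes and cells that did not, after thinning to 4000 UMIs. Among cells with an Igf1 UMI 3.34% were dividing, against 6.34% of the others, and it was lower with the gene in 3 of 3 libraries (3.21%, 2.85% and 4.11% against 6.66%, 5.20% and 7.37%). Angpt2 carriers were dividing in 1.92% of cases, 39 of 2032 cells, against 4.99% of the others, again in the same direction in 3 libraries. The shares were 4.00% against 5.29% for Cdkn1c and 3.01% against 4.49% for Pi16, lower with the gene in 3 of 3 libraries each. Carriers of Scx, a tendon factor, were dividing in 7.52% of 226 cells against 4.24%, higher in all 3 libraries. The Col2a1 carriers, at 9.52% against 4.09%, rest on a signal near background, since 4.08% of mesenchyme cells but also 2.87% of red blood cells at the same depth had a Col2a1 UMI. For Igf1, the same shares were 67.5% and 7.94%, and for Angpt2 21.9% and 0.88%. Sox9 and Isl1 carriers were close to the others, with 4.25% against 4.33% and 4.26% against 4.39%. These shares draw on the same UMIs as the levels above and carry no test.

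The change between the groups was compared with that in limb mesenchyme by an interaction term in edgeR over all 5 libraries. The forelimb and hindlimb libraries were taken as replicates of a single limb group. The spread within that group is therefore between different limbs, and neither limb had a replicate of its own. The limb calls and the interaction p-values below rest on this. In the limbs alone, 17.1% of genes were called higher and 14.3% lower in dividing cells. Of 19394 genes, 680 (3.51%) had a more positive and 1008 (5.2%) a more negative change in the penis. The split depended on the scaling: with RLE size factors it was 1023 (5.27%) and 476 (2.45%), and the median interaction over all genes moved from -0.12 to 0.00. Without penis library 3 the more negative calls fell to 343, and among cells with 8000 to 16000 UMIs the calls were 414 and 199. Lists are given under both scalings.

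Without a limit on depth, most mitosis and replication genes rose more in the penis than in the limbs. The interaction was positive in 45 of 58 mitosis genes and negative in 1, and with RLE in 48 and 1. The negative one was Ccnb1, at 118 and 116 CPM in dividing against 3.6 and 3.64 CPM in non-dividing cells of forelimb and hindlimb. Of 49 replication genes, 45 were more positive in the penis, 47 with RLE, and none was more negative. The median log2 fold change of the replication genes was 2.44 in the penis and 1.15 in the limbs. As an example of the levels, Aurkb was at 85.9 and 80.4 CPM in dividing limb cells and 2.16 and 1.72 CPM in non-dividing limb cells, so that the penis was higher in dividing (137 to 178 CPM) and lower in non-dividing cells (0.21 to 0.63 CPM). Non-dividing limb cells had a median of 4824 and 5422 UMIs, shallower than those of the penis. After thinning to 4000 UMIs, with RLE (an alternative chosen after seeing the data), 42 mitosis and 37 replication genes were more positive in the penis. Among cells with 8000 to 16000 UMIs, 40 replication genes were so, but 24 of the 58 mitosis genes in place of 45. The mitosis genes share the phase of the rule genes, and a shallow cell more easily shows none of the rule genes. The mitosis interaction therefore cannot separate tissue from the rule and from depth, and the part of each was not tested. The non-dividing group can also hold cells in S phase that showed none of the rule genes. At least 1 rule gene was seen in a mean of 47.4% of gated limb and 29.5% of gated penis cells. The replication interaction therefore cannot separate tissue from the rule either, and the part of each was not tested.

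**Figure D5:**
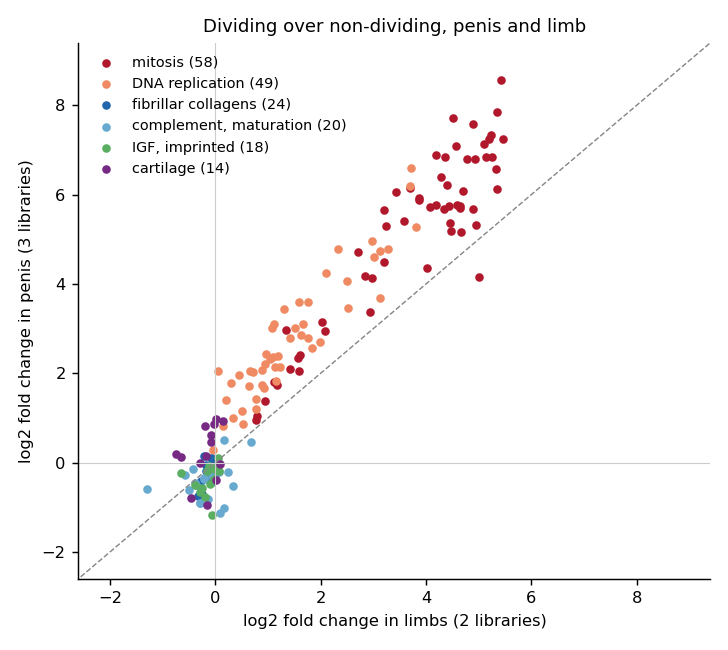
Log2 fold change of dividing over non-dividing mesenchyme in the 2 limb libraries (x axis) and in the 3 penis libraries (y axis), 1 point per gene of 6 lists, with the line of equal change dashed. Replication genes, with medians of 1.15 and 2.44, lie above the line, and cartilage genes lie near 0 on the limb axis and mostly above 0 on the penis axis.

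Cartilage genes also differed: of 15, 5 had a more positive change in the penis, 7 with RLE, and none a more negative one. In the limbs alone 6 of the list were called lower in dividing cells and 2 higher, so the difference also holds limb decreases. Sox6 was at 119 and 194 CPM in dividing and 134 and 224 CPM in non-dividing cells of forelimb and hindlimb, in contrast to its increase in the penis (interaction 0.88, edgeR adjusted p = 6.23e-06). The IGF and imprinted list went the other way, with 10 of 18 more negative in the penis and 1 more positive, and 6 and 1 with RLE. In the limbs alone 8 of the 18 were lower in dividing cells and none higher, the same counts as in the penis. Igf1 was at 311 and 249.2 CPM in dividing against 365 and 319 CPM in non-dividing limb cells. Igfbp3 was at 106 and 95.5 CPM in dividing against 112 and 96.8 CPM in non-dividing limb cells, and its interaction was -1.24 (edgeR adjusted p = 3.77e-07). Fibrillar collagens were more negative in 10 of 24, but with RLE in 4, with 1 more positive. Ogn was lower in both tissues, at 185 and 187 CPM against 324 and 330 CPM in the limbs, and more so in the penis (interaction -1.02, edgeR adjusted p = 6.15e-07).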

How the data were processed

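The data are 10x single cell RNA libraries of 3 mouse penises and of 1 forelimb and 1 hindlimb preparation. The authors deposited whole-number UMI counts, not normalized, for each gene in each barcode, made with Cell Ranger 7.0.0 on mm10 (GRCm38) by the submitters' processing notes. The penis libraries summed to 70554067 to 100636762 UMIs. Counts were filtered and grouped as given above, summed per library and group, scaled by TMM and tested in edgeR 4.0.16 (R 4.3.3, filterByExpr, glmQLFit, glmQLFTest) with the library as a block, and genes of the rule and gate were left out of the tests. The pairs are by construction, since both groups of a pair come from the same library, and the deviations of paired groups correlated by 0.03, 0.06 and 0.10. CPM are per total UMIs of a group, with no TMM factor. On counts simulated for the comparison of dividing with non-dividing penis cells over 15883 genes, the test recovered 45% of log2 changes of 0.5 and 72.7% of log2 changes of 1 with 0 false calls. This single run gave every gene the same dispersion, 0.0034, and changed 100 and 99 tested genes, up and down alike. It does not cover genes that vary more between libraries, or changes as many and as uneven as those called here. The members and gene lists were chosen with earlier results of these data known. Named genes are, at 20 CPM or more, the 12 highest and 12 lowest called with the same direction in 3 libraries, up to 6 called and the 2 most abundant of each list, genes fixed by name and the 6 largest interactions; the few others, including the genes followed over the number of rule genes and those that complete a small count, were chosen after their values were seen. Doublets were not removed: Scrublet marked at most 0.192% of the cells of a library, too few to be used, and 0 of the dividing cells. At most 37 barcodes were shared between penis libraries and 203 between any 2 libraries. Alternatives were DESeq2 1.42.0, RLE or library-sum scaling, no low-count filter, no block, leaving out each penis library, other thresholds of the rule, a UMI window, thinning, and other gates. A few results are not reported here.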

Additional observations from a re-analysis of the deposited data

Results flagged for a closer look

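The 6 largest differences between the change in the penis and the change in the limbs were found by the edgeR interaction test, among genes at 20 CPM or more that moved the same way in all 3 penis libraries. Hist1h3c, a histone gene, had an interaction of 3.97 and Hist1h2af of 3.84, both more positive in the penis. Depdc1a and Pimreg, expressed in mitosis, followed with 3.78 and 3.25, and Cdca3 with 3.06. Depdc1a was at 137, 123 and 171 CPM in dividing and 0.19, 0.12 and 0.11 CPM in non-dividing penis cells, against 81.4 and 73.6 CPM in dividing and 1.62 and 0.84 CPM in non-dividing limb cells. For these genes the level in non-dividing limb cells was above that in non-dividing penis cells, and the limb cells were shallower. S100a9 had an interaction of -3.68, with 2.86, 18.96 and 57.3 CPM in the non-dividing cells of the penis libraries against 0.78 to 0.95 CPM in dividing ones. The part of depth and of neutrophil RNA in these values was not tested.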

How the results depend on the processing

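Of 2232 recomputed values over 140 named genes, 2055 kept their direction and side of the threshold, 160 lost the call, 9 gained it and 8 turned. With the stricter gate, which also bars markers of other cell types and the haemoglobin gene Hbb-bs, few cells remain. There 868 genes were higher and 394 lower. Of the lists, 3 fibrillar collagens, 8 elastic fibre genes and 5 IGF and imprinted genes were lower and 2 cartilage genes higher. In that gate Runx2 was at -2.14 and passed the edgeR test, Col11a2 was at -0.49, Col14a1 at 0.0435 and Lum at 0.0692. Thinning to 4000 UMIs gave 1585 higher and 1104 lower. DESeq2 gave 989 lower, 177 of them past 1. No low-count filter gave 2643 lower, 454 past 1, and 14 IGF and imprinted genes lower. A rule of at least 2 genes gave 67 lower past 1 and 3 cartilage genes higher, and no upper limit on genes (chosen after seeing the data) gave 140 lower past 1 and Sox9 at 0.32. Among 8000 to 16000 UMIs Col2a1 was at 1.33 and Myh11 at -0.40, and without mural, white blood or vessel UMIs S100a8 was at 0.43. For the interaction, calls more positive in the penis numbered 1023 with RLE, 315 with at least 2 genes, 414 in the UMI window and 387 thinned; more negative calls numbered 476 with RLE, 197 with no filter, 401 with at least 2 genes, 199 in the window, 600 thinned and 243 thinned with RLE. Leaving out a penis library gave 343 to 871 more negative calls, the lowest without library 3. The causes were not tested.

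The mean dividing share was 9.21%, 4.51%, 6.14%, 4.37% and 3.45% in the penis with at least 2 genes, at least 4 genes, no upper limit, 4000 UMIs and 2000 UMIs. In the limbs it was 27.1%, 17.3%, 10.8%, 17.6%, 19.4% and 11.96% with at least 2 genes, at least 4 genes, the stricter gate, no mural, white blood or vessel UMI, 4000 UMIs and 2000 UMIs. The ratio of median UMIs was 1.14 in the window, 1.30 with at least 2 genes and 1.44 with at least 4; the ratio of genes was 1.12 in the window; and the mitochondrial difference was 0.13 points in the window and -0.10 with at least 2 genes. The replicate block is the library that both groups share: without the block 2415 genes were higher and 1605 lower. The Scrublet alternative was not run, since it marked too few cells. With 162 to 184 dividing cells in a library, a change of 0.5 on the log2 scale was often not detectable.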

Other observations

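The span of a gene on the chromosome, from start to end in the GENCODE annotation of GRCm38, was available for 15864 of the 15876 tested genes (99.9%). At 20 CPM or more, the 112 genes lower by over 1 on the log2 scale had a median span of 105 kb, against 31.7 kb over all 8076 tested genes at that level. The 2004 genes called higher had a median span of 23.7 kb and the 1380 called lower 45.2 kb. In the fifth of genes with the longest spans, 96.1 kb and more, 28.4% were called lower and 14.4% higher, and the median log2 fold change was -0.11. In the fifth with the shortest spans, up to 10.1 kb, 18.8% were lower and 30.6% higher, with a median of 0.08. The shares did not change steadily: in the 3 groups between, 11.2%, 12.3% and 14.8% were lower and 29.97%, 27.6% and 21.6% higher, with medians of 0.10, 0.07 and 0.01. The medians for the longest and the shortest spans were -0.13 and 0.03 after thinning to 4000 UMIs, and -0.02 and -0.01 in the limbs. Whether the authors counted intron reads is not given in the sources used here, and the part of counting in this pattern was not tested.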
